A study of Mus musculus with 9 samples.

Results

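The genes described here are 51 mouse genes whose protein products bind actin monomers, cut, cap, crosslink or bundle actin filaments, tie filaments to the plasma membrane, or sit in focal adhesions. They were taken by gene symbol from 35896 genes to which the deposited transcripts could be assigned, and all 51 were expressed above the filter on low counts that left 14648 genes for testing. The list was drawn up by function, with earlier results of these data known. RNA was sequenced from E14, an established mouse embryonic stem cell line, in 3 groups of 3 libraries. Control cells with LIF2i were kept in serum medium containing the cytokine LIF, the MEK inhibitor PD0325901 and the glycogen synthase kinase-3β inhibitor CHIR99021, a mixture that holds the cells in self-renewal. Control cells without LIF2i were grown for 72 h in medium lacking all 3 of these, which starts spontaneous differentiation. CK666 cells were withdrawn in the same way with 80 µM CK666, a compound that blocks actin branching by the Arp2/3 complex, renewed daily. It was dissolved in DMSO, and because the labels do not state whether the control cultures received DMSO, the compound and its solvent cannot be told apart. All cultures came from 1 cell line, and the series asks what Arp2/3 activity contributes to differentiation of these cells.

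Actin filaments turn over continuously: profilin and thymosins hold monomers, capping protein stops growth at the fast-growing end, and cofilin, switched off by LIM kinases and switched on by slingshot phosphatases, cuts old filaments so that their monomers can be used again. Crosslinkers such as α-actinin, filamin, fascin and plastin tie filaments into bundles or meshes, ezrin, radixin and moesin fasten them to the plasma membrane, and talin, paxillin and zyxin connect them to integrins at sites where the cell holds on to its substrate. Embryonic stem cells in self-renewal medium grow as compact colonies, and cells that leave this state spread on the dish.

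Library totals lay between 16894327 and 22550952 estimated counts, at which 3 counts correspond to 0.134 to 0.179 CPM, counts scaled by library size. Along the second principal component (23.3% of the variance over all genes tested) the replicate 1 libraries of all 3 groups stood apart from replicates 2 and 3, so counts of called genes over the set and its roles are also given without replicate 1. All 7 embryonic stem cell markers examined were expressed in all libraries, and 5 of the 7 fell on withdrawal while 1, Utf1, rose. Their summed level in TPM, a length-corrected share of the library, was 5421 to 10960 with LIF2i, 3543 to 4716 without it and 4117 to 6368 with CK666. Of 7 fibroblast markers, 4 rose on withdrawal, from a summed 4.77 to 7.32 TPM with LIF2i to 24.5 to 31.2 TPM without and 14.6 to 24.4 TPM with CK666. Most of that sum was Thy1, a surface glycoprotein also found outside fibroblasts, while Lum and Postn were at or near 0. Of 6 primitive endoderm markers, 1 rose on withdrawal (summed 4.80 to 9.07, 9.58 to 30.4 and 11.9 to 23.2 TPM in the same order), and of 6 trophoblast markers 1 rose and 1, Tfap2c, fell (44.7 to 63.5, 8.86 to 12.1 and 7.53 to 11.4 TPM). Of 5 blood cell markers 2 fell (106 to 196, 9.28 to 23.3 and 9.79 to 33.1 TPM), while Ptprc was at most 0.0785 TPM and Hbb-bs and Cd52 did not exceed 3 counts in any library. Between CK666 and the withdrawn controls none of these markers was called with all libraries and 5 were without replicate 1 (3 stem cell, 1 primitive endoderm and 1 trophoblast marker), and their part in the results below was not tested. In these bulk libraries, fewer cells of a type and less RNA per cell cannot be told apart.

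Transcripts of proteins that handle monomers or cut filaments were the most abundant of the set. On the TPM scale, which divides by transcript length and so allows levels of different genes to be compared, the mean over the 9 libraries was 2024 for Tmsb10, a thymosin that sequesters monomers, 929 for Pfn1, the main profilin, and 711 for Cfl1, the main cofilin. Dstn, the cofilin relative destrin, followed at 330.1 TPM, then the bundling protein Fscn1 (fascin) at 312, the α-actinin Actn4 at 296, the capping protein subunit Capzb at 276 and the filamin Flna at 196 TPM. The least abundant were Vil1 (villin), at 1.65 TPM, and Lcp1 (L-plastin), at 1.83 TPM, both best known from other tissues. Neighbours in this order overlapped between libraries: Tmsb10 ranged from 1011, 3506 and 2954 TPM in replicates 1, 2 and 3 with LIF2i to 745, 2430.0 and 2720.0 without it and 785, 1970.2 and 2094 with CK666. Replicate 1 was the lowest library of every group for Tmsb10, and in all 3 replicate 1 libraries Pfn1 was the higher of these genes. Within their roles, Cfl1, Tmsb10, Capzb, Enah, Fscn1, Ezr and Lasp1 had the highest mean TPM.

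**Figure D1:**
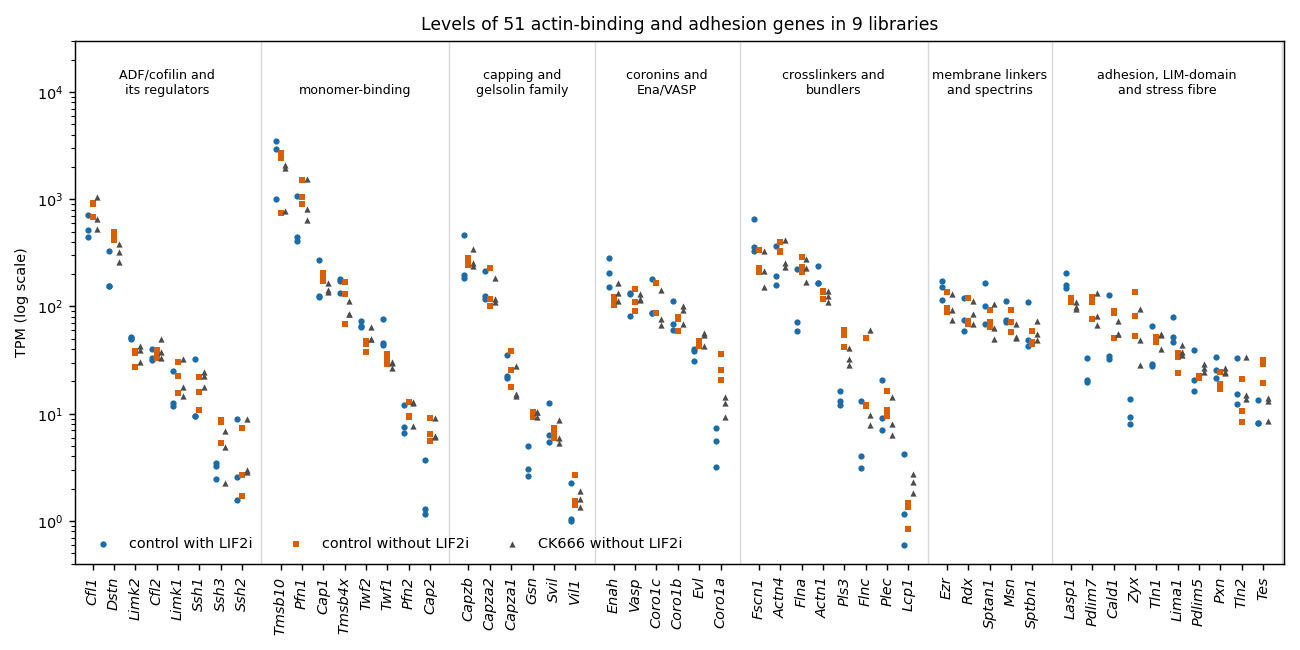
Level of each of the 51 genes in TPM (log axis) in every library, with genes sorted by mean level within 7 roles; circles are control with LIF2i, squares control without LIF2i and triangles CK666 without LIF2i, 3 libraries each. Monomer-binding and cofilin genes reach the highest levels, and Zyx, Pls3, Pdlim7 and Coro1a show the circles well below the squares.

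Withdrawal of LIF2i changed the genes of this set in both directions. In control cells without LIF2i compared with control cells with it, 16 of 51 genes rose (31.4%, against 21.1% of all 14648 genes tested) and 12 fell (23.5%, against 19.7% of all genes), at an adjusted p under 0.05 in edgeR's quasi-likelihood test. Changes and estimates below are log2 fold changes from this fit, with their standard error (SE). The genes that rose most were zyxin (Zyx), the coronin Coro1a, the PDZ and LIM domain protein Pdlim7, the monomer-binding protein Cap2 and the plastin Pls3, each with a log2 fold change of at least 1.87. All 11 called changes with an absolute log2 fold change of 1 or more were increases. The falls were smaller, the largest being -0.95 for Lima1. The median log2 fold change of the 51 genes was 0.05, beside 0.01 over all genes tested, and 27 estimates were positive and 24 negative. This median was 0.20 without replicate 1 and -0.03 without replicate 2, beside 0.01 and 0.02 over all genes in those fits. Leaving out replicate 1 in all groups gave 34 called genes instead of 28 (66.7%, against 44.8% of all genes in that fit), and leaving out replicate 3 gave 17 (33.3%, against 20.7%). Without replicate 1, 23.7% of all genes rose and 21% fell. In that fit the counts raised and lowered were 4 and 1 of 8 for the cofilin genes and their enzymes and 3 and 3 of 8 for monomer-binding genes. They were 2 and 1 of 6 for capping and gelsolin genes, 1 and 1 of 6 for coronins and Ena/VASP and 5 and 2 of 8 for crosslinkers. For membrane linkers they were 0 and 2 of 5, and for adhesion genes 5 and 4 of 10. Without the replicate number as a block 12 were called (23.5%, against 24.0%), namely Dstn, Cap2, Gsn, Coro1a, Pls3, Zyx, Tes and Pdlim7, which rose, and Twf1, Enah, Pxn and Lima1, which fell; all of these except Pxn were called in each of the 21 alternative analyses.

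**Figure D2:**
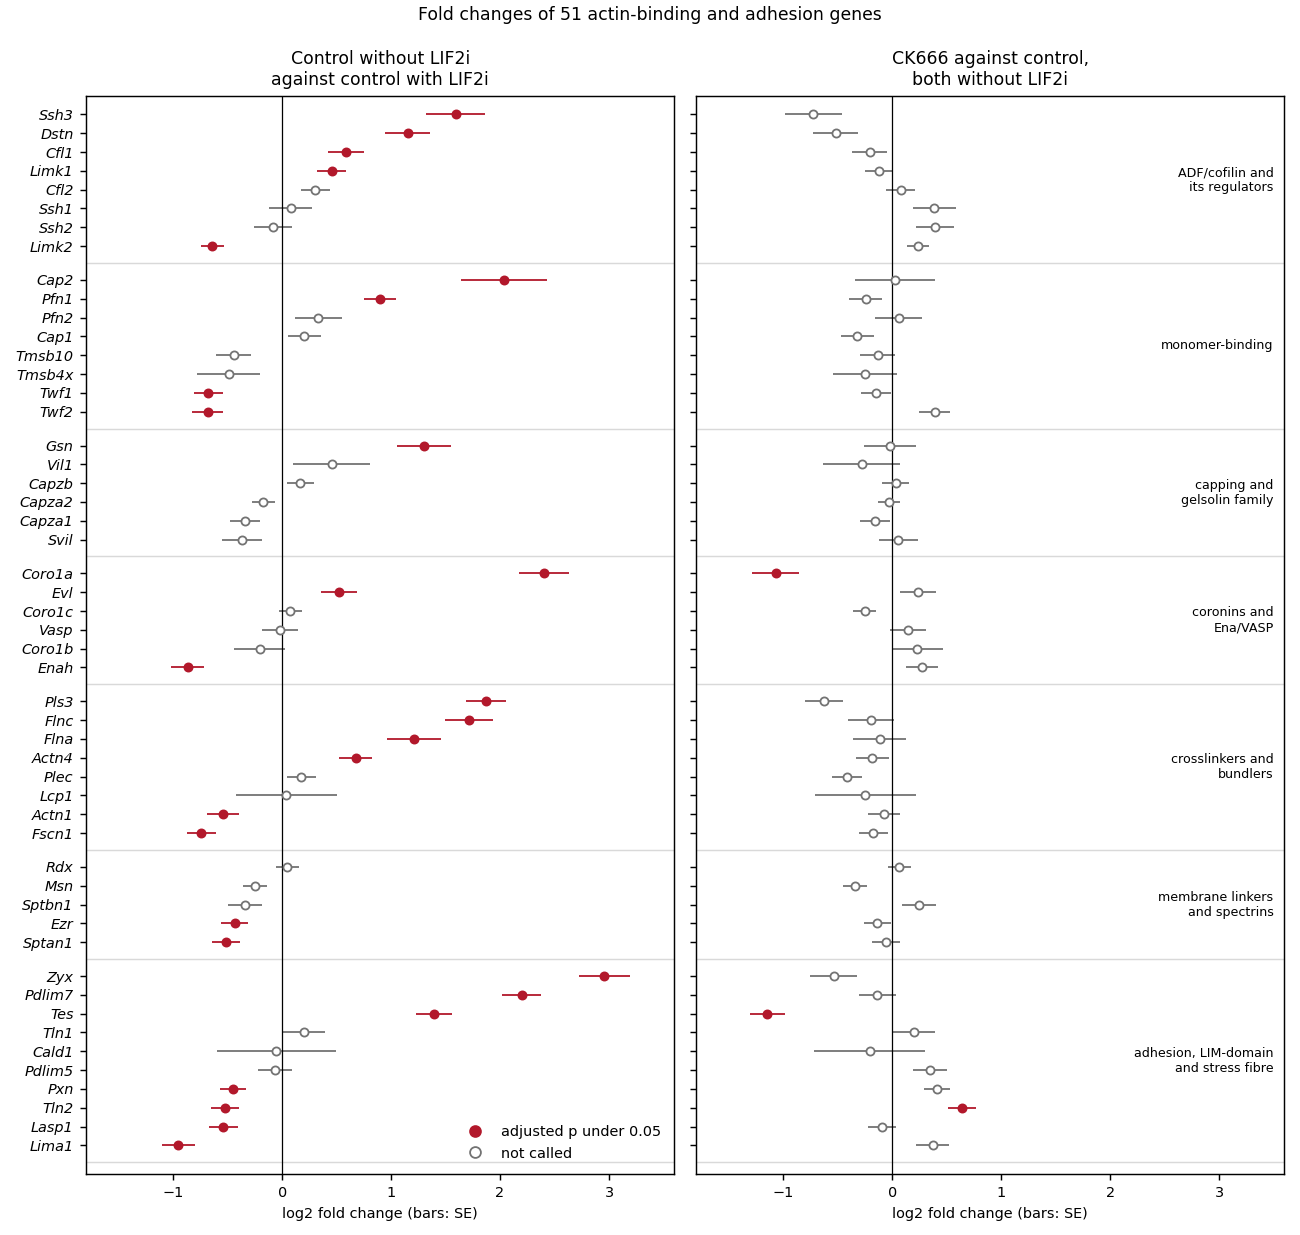
Log2 fold change of each gene with its standard error, for control without against control with LIF2i (left) and CK666 against control, both without LIF2i (right); filled red points were called at an adjusted p under 0.05 and open grey points were not. On the left 16 genes are called to the right of 0 and 12 to the left, with Zyx at 2.96 the farthest; on the right Coro1a and Tes are called below 0 and Tln2 above it.

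The sequences in front of the 6 genes with the largest rises are shown because these genes moved in the same direction on withdrawal, and that of Tes because it had the lowest adjusted p for CK666; this choice was made after the values were seen. They are RefSeq windows on GRCm38.p6 of 300 bases, from 250 bases before to 50 bases from the start site onwards, 5′ to 3′ on the gene's own strand; of several windows of a gene, the one nearest the start of its most abundant transcript is given. Capitals mark every match to the 6-letter TEAD-type motif CATTCC or its reverse complement GGAATG, the AP-1-type motif TGANTCA, which reads the same on both strands, and the GC box GGGCGG or its reverse complement CCGCCC; overlapping GC boxes form 1 run. The CArG box bound by serum response factor was searched too and is in none of these windows. Positions are counted from 0 at the start site, and positions of whole genes, here and below, are those of GENCODE M21 on GRCm38. Zyx lies at chr6:42349630-42360213 (plus strand) and its window at chr6:42349578-42349877, with an AP-1-type match at -121 and GC boxes at -223 and -10. Coro1a (chr7:126699773-126707787, minus strand, window chr7:126704767-126705066) has GC boxes alone. Pdlim7 (minus strand, window chr13:55513397-55513696) has 1 GC box, and Cap2 (plus strand, window chr13:46501653-46501952, 263 bases from the start of its main transcript) has no match. Pls3 (chrX:75785654-75875182, minus strand, window chrX:75875133-75875432) has TEAD-type matches at -230 and -179 and a GC box at 1. Flnc (chr6:29433256-29461883, plus strand, window chr6:29433006-29433305) has a TEAD-type match at -104 that directly follows a GC box, and further GC boxes. Tes (chr6:17065149-17105828, plus strand, window chr6:17064899-17065198) has GC boxes alone.
Zyx: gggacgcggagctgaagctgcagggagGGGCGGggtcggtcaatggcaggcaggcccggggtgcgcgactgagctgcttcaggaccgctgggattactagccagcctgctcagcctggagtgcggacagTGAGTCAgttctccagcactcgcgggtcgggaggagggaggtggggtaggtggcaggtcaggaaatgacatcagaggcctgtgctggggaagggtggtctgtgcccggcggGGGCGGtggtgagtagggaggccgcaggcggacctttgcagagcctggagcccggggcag
Coro1a: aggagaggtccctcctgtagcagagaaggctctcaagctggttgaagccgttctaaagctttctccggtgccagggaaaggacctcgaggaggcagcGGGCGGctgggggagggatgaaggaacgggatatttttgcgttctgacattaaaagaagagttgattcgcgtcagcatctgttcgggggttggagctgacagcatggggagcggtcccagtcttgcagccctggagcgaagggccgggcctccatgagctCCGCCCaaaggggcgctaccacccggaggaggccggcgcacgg
Pdlim7: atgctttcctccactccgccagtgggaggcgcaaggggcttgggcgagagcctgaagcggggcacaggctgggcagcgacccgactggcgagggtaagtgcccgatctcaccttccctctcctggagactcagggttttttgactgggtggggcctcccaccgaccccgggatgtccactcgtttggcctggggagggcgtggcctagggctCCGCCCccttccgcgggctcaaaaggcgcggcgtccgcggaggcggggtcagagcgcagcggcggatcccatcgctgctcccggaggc
Cap2: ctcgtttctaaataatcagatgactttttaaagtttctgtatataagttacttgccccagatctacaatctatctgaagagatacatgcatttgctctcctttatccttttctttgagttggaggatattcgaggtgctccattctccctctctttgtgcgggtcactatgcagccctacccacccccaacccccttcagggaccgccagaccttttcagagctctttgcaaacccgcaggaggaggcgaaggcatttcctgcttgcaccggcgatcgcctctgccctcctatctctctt
Pls3: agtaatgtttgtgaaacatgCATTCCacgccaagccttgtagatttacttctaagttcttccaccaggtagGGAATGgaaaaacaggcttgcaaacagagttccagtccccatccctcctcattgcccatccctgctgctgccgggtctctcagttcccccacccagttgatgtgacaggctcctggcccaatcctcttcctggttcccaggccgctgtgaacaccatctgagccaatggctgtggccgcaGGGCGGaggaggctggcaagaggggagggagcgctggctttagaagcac
Flnc: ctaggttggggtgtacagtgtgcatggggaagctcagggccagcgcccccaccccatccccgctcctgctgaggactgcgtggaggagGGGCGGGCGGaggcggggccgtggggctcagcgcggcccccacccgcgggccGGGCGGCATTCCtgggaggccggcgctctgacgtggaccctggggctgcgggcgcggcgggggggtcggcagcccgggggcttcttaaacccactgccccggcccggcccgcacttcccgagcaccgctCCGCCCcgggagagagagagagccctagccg
Tes: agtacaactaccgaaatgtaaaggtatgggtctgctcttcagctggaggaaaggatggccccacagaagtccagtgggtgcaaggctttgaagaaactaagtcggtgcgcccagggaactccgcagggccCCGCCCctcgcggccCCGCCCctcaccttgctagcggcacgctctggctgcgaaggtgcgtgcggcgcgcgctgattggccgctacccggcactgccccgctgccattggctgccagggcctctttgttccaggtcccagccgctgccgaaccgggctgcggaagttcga

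Promoter windows were found for 45 of the 51 genes; Twf2, Svil, Coro1b, Plec, Tln2 and Pxn had no window used here. Counting any window of a gene, the TEAD-type motif was present for 6 of the 16 genes that rose (Pfn1, Evl, Actn4, Flna, Flnc and Pls3), for none of the 9 that fell and had a window, and for 2 of the 20 others (Lcp1 and Cald1), while 16.6% of all 27025 genes with a window held it. The AP-1-type motif was found for Actn4 and Zyx among the genes that rose, for Limk2 and Ezr among those that fell and for Cald1, against 8.97% of all genes. A CArG box was found for Lima1, which fell, and for Vil1, which was not called, against 1.81% of all genes. The GC box was present for 15 of 16 genes that rose, 7 of 9 that fell and 17 of 20 others, against 38.2% of all genes. The 27025 genes were not filtered on expression, while all 51 genes passed the filter on low counts. The shares of each motif therefore compare unlike sets of genes. The windows of Lima1 and Lcp1 lie 55307 and 53904 bases from the start of the most abundant transcript of their gene, so these matches are not in front of the transcript that carries most of its signal; those of Ssh1 and Capzb, counted for the GC box, lie 4047 and 1212 bases away. The motifs were picked after the fold changes were known, and a match describes the letters in the window, not binding.

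Among the ADF/cofilin proteins and the enzymes that switch them, 4 of 8 genes rose on withdrawal (50.0%, against 21.1% of all genes tested) and 1 fell (12.5%, against 19.7%). Roles hold 5 to 10 genes, so such shares are coarse and describe these genes alone. Dstn, which severs filaments and takes up monomers (chr2:143915320-143943324), was at 328, 216 and 204 CPM in replicates 1, 2 and 3 with LIF2i, at 436, 574 and 629 CPM without it and at 425, 336 and 395 CPM with CK666. All libraries without LIF2i lay above all those with it, and the log2 fold change on withdrawal was 1.15 (SE 0.21, adjusted p 0.0021). Cfl1, its more abundant relative, was at 573, 523 and 554 CPM with LIF2i, 804, 725 and 953 CPM without and 958, 559 and 663 CPM with CK666. The first 2 groups did not overlap, and Cfl1 rose by 0.59 (SE 0.16, adjusted p 0.019); this call was lost in 6 of the 21 alternatives, among them those without replicate 2, without replicate 3, without the replicate 2 or 3 library of the withdrawn controls and without the replicate 3 library with LIF2i. Part of the Cfl1 exons (16.5% of their bases) overlaps Snx32 on the other strand, and 22.6% of its 31-base words occur in other annotated genes, so its count is uncertain. The muscle-type cofilin Cfl2 had an estimate of 0.30 (SE 0.13, adjusted p 0.10), which did not pass.

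The enzymes that act on cofilin moved in different directions. Slingshot phosphatases remove the inhibitory phosphate from cofilin, and of the 3 genes Ssh3 rose. It was at 1.62, 6.43 and 4.19 CPM with LIF2i, 6.51, 14.8 and 13.2 CPM without and 3.18, 8.15 and 10.6 CPM with CK666, with a change on withdrawal of 1.59 (SE 0.27, adjusted p 0.0016). The replicate 1 library was the lowest of each group, and within each replicate number the library without LIF2i was higher. Ssh1 (0.08, SE 0.20) and Ssh2 (-0.08, SE 0.17) did not pass. The LIM kinases, which add the phosphate, went opposite ways: Limk1 rose by 0.45 (SE 0.13, adjusted p 0.021) and Limk2 changed by -0.64 (SE 0.11, adjusted p 0.0013). Neither was called without the replicate block, and the Limk1 call was also lost without replicate 2, without replicate 3 and without the replicate 2 library of either control group.

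Of 8 monomer-binding genes 2 were raised and 2 lowered (25.0% each, close to the 21.1% and 19.7% of all genes). Cap2, one of a pair of cyclase-associated proteins that help cofilin recycle monomers (chr13:46501848-46650281), rose from a low level. It was at 4.86, 1.88 and 2.00 CPM with LIF2i, 11.0, 13.5 and 10.7 CPM without and 8.81, 11.9 and 14.9 CPM with CK666, and all 6 libraries without LIF2i exceeded all 3 with it. Its log2 fold change was 2.03 (SE 0.39, adjusted p 0.0031), against 0.20 (SE 0.15, adjusted p 0.33) for the more abundant Cap1, which did not pass. Pfn1, which delivers monomers to growing filament ends, rose by 0.90 (SE 0.15, adjusted p 0.0014), from 273 ± 103 CPM (SD, n = 3) to 489 ± 71.8 CPM (n = 3). The twinfilins, which sequester monomers and bind filament ends, both fell, with changes of -0.68 (SE 0.14, adjusted p 0.0037) for Twf1 and -0.69 (SE 0.14, adjusted p 0.0041) for Twf2. The Twf2 call was lost without replicate 3. Twf1 shares 12.9% of its exonic bases with Irak4 on the other strand.

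The thymosins did not pass in this comparison. Tmsb10, the most abundant gene of the set, was at 189, 925 and 749.9 CPM with LIF2i, 138, 562 and 669 CPM without and 161, 489.8 and 499.6 CPM with CK666. Each replicate number had less without LIF2i than with it, by unequal amounts. The spread between numbers was larger than these differences, but the block takes it out of the test. The estimate of -0.44 (SE 0.16, adjusted p 0.051) just missed the threshold. In 6 of the 21 alternatives Tmsb10 was called. Tmsb4x had an estimate of -0.49 (SE 0.29, adjusted p 0.21) and Pfn2 one of 0.33 (SE 0.22, adjusted p 0.26). Of the 31-base words of Tmsb10, 32.0% occur in other annotated genes.

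No subunit of capping protein passed the test, while gelsolin was the 1 gene of 6 in the capping and gelsolin family that rose (16.7%, against 21.1%), and none fell. The 3 subunit genes of capping protein, which closes the fast-growing end of filaments, had estimates of 0.17 (SE 0.12) for Capzb, -0.17 (SE 0.10) for Capza2 and -0.34 (SE 0.14) for Capza1, and none passed. Capzb was at 264, 228 and 199 CPM with LIF2i, 243, 277 and 252 CPM without and 285, 251 and 254 CPM with CK666, and the 3 groups overlapped. Capza1 shares 70.2% of its 31-base words with other genes. Gsn, gelsolin, a calcium-dependent severing and capping protein (chr2:35256380-35307892), was at 6.78, 5.85 and 4.68 CPM with LIF2i, 11.6, 18.3 and 13.7 CPM without and 10.3, 17.8 and 14.9 CPM with CK666. The libraries with LIF2i were the lowest 3 of the 9, and the change on withdrawal was 1.30 (SE 0.25, adjusted p 0.0029). Its relatives Vil1 (0.46, SE 0.35) and Svil (-0.37, SE 0.18), supervillin, did not pass.

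In the coronin and Ena/VASP families 2 of 6 genes rose (33.3%, against 21.1% of all genes) and 1 fell (16.7%, against 19.7%). Coro1a, a coronin best known from blood cells that binds filaments and the Arp2/3 complex, was at 2.70, 5.12 and 3.89 CPM with LIF2i, 14.3, 20.9 and 27.4 CPM without and 8.25, 9.97 and 10.9 CPM with CK666. No group overlapped another: Coro1a was lowest with LIF2i, intermediate with CK666 and highest in the withdrawn controls. Its change on withdrawal was 2.41 (SE 0.23, adjusted p 6.2e-05), called in all 21 alternatives. Coro1c (0.08, SE 0.11) and Coro1b (-0.21, SE 0.24), the widely expressed coronins, did not pass, and 13.5% of the exonic bases of Coro1b are shared with other genes. Ena/VASP proteins speed up filament growth at the leading edge and at adhesions, and their 3 genes went separate ways. Enah was at 439.7, 342 and 428 CPM with LIF2i, 211, 246 and 205 CPM without and 306, 272 and 225 CPM with CK666, all libraries with LIF2i above all others, with a change on withdrawal of -0.87 (SE 0.15, adjusted p 0.0017). Evl rose by 0.52 (SE 0.16, adjusted p 0.030), a call lost in 10 of the 21 alternatives, including those without replicate 1, without replicate 3 and without the replicate 1 or 3 library of either control group. Vasp had an estimate of -0.02 (SE 0.17) and did not pass.

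Of the 8 crosslinkers and bundlers, 4 rose (50.0%, against 21.1% of all genes) and 2 fell (25.0%, against 19.7%). Pls3, a plastin that packs filaments into tight bundles, was at 28.7, 29.1 and 30.1 CPM with LIF2i, a narrow range, against 77.3, 133 and 118 CPM without and 61.2, 60.9 and 88.9 CPM with CK666. No library with LIF2i reached the others, and the change was 1.87 (SE 0.18, adjusted p 7.0e-05). Flna, filamin A, which joins filaments into orthogonal meshes and binds integrins, was at 1073, 371 and 409 CPM with LIF2i, 1434, 1206 and 1227 CPM without and 1434, 962 and 1228 CPM with CK666. With LIF2i its replicate 1 library was far above the other two, and the change of 1.21 (SE 0.25, adjusted p 0.0041) was not called without the block, without replicate 2 or without replicate 3. Flnc, the muscle-type filamin, was at 59.6, 27.7 and 20.2 CPM with LIF2i, 226, 72.6 and 74.0 CPM without and 271, 49.1 and 57.0 CPM with CK666. Replicate 1 was the highest library in every group, yet each replicate number was higher without LIF2i, with a change of 1.71 (SE 0.22, adjusted p 0.00032).

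The 2 α-actinins, which link parallel filaments in stress fibres and adhesions, moved apart. Actn4 rose by 0.67 (SE 0.15, adjusted p 0.0061) and Actn1 fell, with -0.54 (SE 0.15, adjusted p 0.015); the Actn4 call was lost without replicate 2 or 3, and that of Actn1 without replicate 3 or without the replicate 1 or 3 library of the withdrawn controls. Fscn1, fascin, which builds the stiff bundles of filopodia, was at 650.3, 514 and 465 CPM with LIF2i, 387, 286 and 301 CPM without and 379, 212 and 283 CPM with CK666. Every library with LIF2i was above every other one, and the change was -0.74 (SE 0.13, adjusted p 0.0021). Plec, plectin, which links actin to intermediate filaments (0.17, SE 0.13), and Lcp1 (0.04, SE 0.46) did not pass.

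Of the 5 membrane linkers and spectrins 0 rose, beside 21.1% of all genes, and 2 fell (40%, against 19.7%). Ezr, ezrin, which ties filaments to membrane proteins, was at 300.4, 242 and 271 CPM with LIF2i, 243, 180.4 and 181 CPM without and 248, 144 and 165 CPM with CK666. The groups overlapped slightly, with replicate 1 without LIF2i just above replicate 2 with it, and each replicate number was lower without LIF2i (-0.44, SE 0.12, adjusted p 0.019). This call was lost in 7 of 21 alternatives, among them those without replicate 2, without replicate 3, without the replicate 2 or 3 library with LIF2i and without the replicate 1 or 3 library of the withdrawn controls. Sptan1, αII-spectrin of the submembrane lattice, changed by -0.52 (SE 0.13, adjusted p 0.010), a call lost without replicate 3 and without the replicate 1 library of the withdrawn controls. Its partner Sptbn1 had -0.34 (SE 0.15), Msn -0.25 (SE 0.11) and Rdx 0.05 (SE 0.10), none of which passed.

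Adhesion and LIM-domain genes held the largest rise of the set, and 3 of 10 rose (30.0%, against 21.1% of all genes) while 4 fell (40%, against 19.7%). Zyx, zyxin, which gathers at adhesions and stress fibres under tension, was at 14.0, 15.7 and 16.3 CPM with LIF2i, 153, 89.3 and 131 CPM without and 128, 52.2 and 83.8 CPM with CK666. Levels with LIF2i were tightly grouped and far below all others, and the change on withdrawal was 2.96 (SE 0.24, adjusted p 2.5e-05). Pdlim7, also called enigma, which binds α-actinin and tropomyosin (chr13:55495795-55513676), was at 14.1, 18.1 and 18.4 CPM with LIF2i, 46.1, 93.2 and 106 CPM without and 48.3, 70.2 and 102 CPM with CK666, a change of 2.20 (SE 0.18, adjusted p 2.8e-05) on withdrawal. Replicate 1 was the lowest library of each group, and no group without LIF2i overlapped the self-renewing cells. Tes, testin, a LIM protein that binds zyxin and Ena/VASP proteins, was at 17.7, 14.6 and 14.2 CPM with LIF2i, 43.5, 32.8 and 47.5 CPM without and 20.4, 14.2 and 21.4 CPM with CK666. It rose on withdrawal by 1.39 (SE 0.17, adjusted p 0.00021), with no overlap between these 2 groups of controls.

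**Figure D3:**
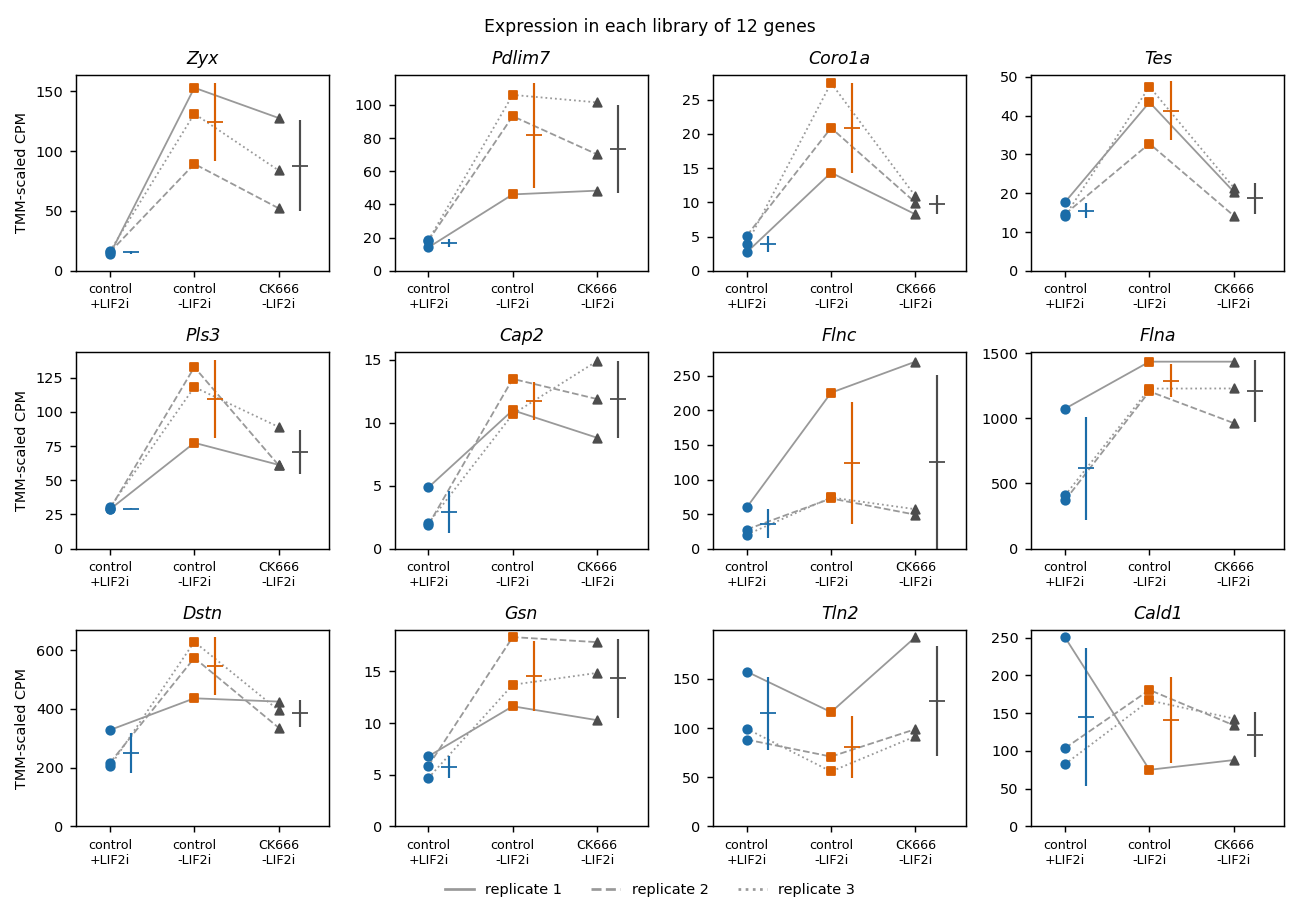
TMM-scaled CPM of 12 genes in every library; grey lines join libraries with the same replicate number, and the cross bars beside the points give mean ± SD (n = 3), cut off at 0 where they would reach below it. Tes and Coro1a fall from the middle to the right group along all 3 lines, Tln2 rises along all 3, and in Cald1 replicate 1 runs against replicates 2 and 3.

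The adhesion genes that fell changed less. Lima1, also called EPLIN, which stabilises stress fibres, had a change of -0.95 (SE 0.15, adjusted p 0.00097), and the scaffold Pxn, paxillin, one of -0.45 (SE 0.12, adjusted p 0.014). The Pxn call was lost without replicate 2, without replicate 3 and without the replicate 3 library of either control group. Lasp1, a LIM and SH3 protein of adhesions, was at 325, 311 and 298 CPM with LIF2i, 183, 214 and 248 CPM without and 206, 178 and 219.8 CPM with CK666. All libraries with LIF2i were above all others, with a change of -0.54 (SE 0.13, adjusted p 0.010); the call was lost without replicate 2 and without the replicate 1 library of the withdrawn controls. Tln2, one of the pair of talins that switch integrins on (chr9:67217087-67559703, minus strand), changed by -0.53 (SE 0.13, adjusted p 0.0092) on withdrawal, a call lost without replicate 3 and without the replicate 3 library of either control group, while Tln1 had 0.20 (SE 0.19). Tln1 and Pdlim5 (-0.07, SE 0.15) did not pass. Cald1, caldesmon, which binds myosin and actin in stress fibres, was at 250.2, 104 and 82.4 CPM with LIF2i, 74.9, 181 and 167 CPM without and 87.8, 134 and 143 CPM with CK666. The replicate 1 library with LIF2i was the highest of all 9, and replicate 1 was lower without LIF2i where replicates 2 and 3 were higher; the estimate was -0.05 (SE 0.54, adjusted p 0.95) with all libraries, 0.93 without replicate 1 (adjusted p 0.00028) and 0.84 without the replicate 1 library with LIF2i alone.

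The effect of CK666 was measured against control cells withdrawn for the same 72 h. Of the 51 genes, 3 were called: Tes and Coro1a were lower with CK666 and Tln2 was higher. This is 5.88% of the set, beside 2.05% of all genes tested. Another 11 genes had an unadjusted p under 0.05, 14 in all, as did 2890 of all 14648 genes. The median log2 fold change was -0.12, beside 0.02 over all genes tested, with 20 estimates positive and 31 negative. These 3 calls depended on the model and on single libraries: without the replicate block 0 genes of the set were called (4 at an unadjusted p under 0.05), as were 0 of all 14648 genes, and limma on log2(TPM + 1) called 0 (9 at an unadjusted p under 0.05) and 0.287% of all genes. The bracketed counts have no share of all genes beside them and are not read as a result about the set. DESeq2 called 4, adding Pls3, which is 7.84% of the set beside 8.44% of all genes, so under DESeq2 the share of the set was close to the background.

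Tes had the lowest adjusted p of the 3. With CK666 it was at 20.4, 14.2 and 21.4 CPM, below all 3 withdrawn controls (43.5, 32.8 and 47.5 CPM), with replicate 2 within the range of the self-renewing cells and replicates 1 and 3 above it (17.7, 14.6 and 14.2 CPM). The log2 fold change against the withdrawn controls was -1.15 (SE 0.16, adjusted p 0.022), lower in 3 of 3 replicate numbers, with -1.23 to -1.06 over the 21 alternatives, 13 of which called it. Its adjusted p without the block was 0.27. Against cells with LIF2i the estimate was 0.25 (SE 0.17, adjusted p 0.28) and did not pass.

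Coro1a was at 8.25, 9.97 and 10.9 CPM with CK666, again below all 3 withdrawn controls (14.3, 20.9 and 27.4 CPM) but above all cells with LIF2i. Its log2 fold change against the withdrawn controls was -1.07 (SE 0.22, adjusted p 0.043), lower in 3 of 3 replicate numbers, from -1.23 to -0.89 over the alternatives, 10 of which called it. The adjusted p without the block was 0.36. Against self-renewing cells it was raised by 1.34 (SE 0.23, adjusted p 0.0017). Of the blood cell markers, Ptprc was at most 0.0785 TPM in any library, and Laptm5 and Cd68, which carried most of the summed level, fell on withdrawal; the part of these markers in the Coro1a values was not tested.

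Tln2 went the other way, with 192, 98.9 and 91.6 CPM with CK666 against 116, 71.0 and 55.8 CPM in the withdrawn controls. The groups overlapped, with replicate 1 the highest library in each, and every replicate number had more Tln2 with CK666. The log2 fold change was 0.64 (SE 0.13, adjusted p 0.041), from 0.55 to 0.74 over the alternatives, 8 of which called it, and the adjusted p without the block was 0.68. Against cells with LIF2i (157, 88.2 and 99.3 CPM) the estimate was 0.11 (SE 0.13, adjusted p 0.53).

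The number of genes called for CK666 moved with single replicates. Without replicate 1 in all groups, 14 of the 51 genes were called (27.5%, against 12.3% of all genes in the same fit): Tes, Coro1a, Tmsb4x, Pls3, Dstn, Zyx, Plec, Cfl1, Pfn1 and Actn4 were lower with CK666, and Tln2, Lima1, Twf2 and Pxn were higher. Without the replicate 1 library of the control with LIF2i alone, 10 were called (19.6%, against 11.0%). Without replicate 2 or replicate 3 in all groups 0 were called (4 and 5 at an unadjusted p under 0.05, edgeR), and 0 were also called after leaving out the replicate 2 library of the withdrawn controls (9) or of CK666 (6), or the replicate 3 library of the withdrawn controls (8) or of CK666 (8). In these 6 fits few genes were called anywhere: 8 and 0 of all genes without replicate 2 or 3, and 5, 2, 4 and 30 after leaving out the single libraries in the order given, so these zeros are not particular to the set. Nor are the bracketed counts read as a result about the set, since no share of all genes stands beside them. Without the replicate 1 library of CK666, Tes and Coro1a were called (3.92%, against 2.7% of all genes). A single gene, Tes, was called without the replicate 1 library of the withdrawn controls or without the replicate 3 library with LIF2i (1.96%, against 1.01% and 0.793% of all genes).

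By role, the estimates for CK666 were as follows, none of them called apart from Tes, Coro1a and Tln2. The 8 crosslinkers and bundlers had estimates from -0.63 for Pls3 to -0.08 for Actn1, all 8 negative, with a median of -0.19, or -0.44 without replicate 1. Pls3 was at 61.2, 60.9 and 88.9 CPM with CK666 against 77.3, 133 and 118 CPM in the withdrawn controls (-0.63, SE 0.18, adjusted p 0.093), and Plec had -0.42 (SE 0.13, adjusted p 0.13). Among the cofilin genes the estimates ran from -0.72 for Ssh3 to 0.39 for Ssh2, and Dstn, with 425, 336 and 395 CPM against 436, 574 and 629 CPM, had -0.52 (SE 0.20, adjusted p 0.20); the Dstn groups did not overlap. Monomer-binding genes lay between -0.32 for Cap1 and 0.39 for Twf2, and the capping and gelsolin family between -0.28 for Vil1 and 0.06 for Svil. The coronins and Ena/VASP genes ranged from -1.07 for Coro1a to 0.27 for Enah, with 4 of 6 positive and a median of 0.19, or 0.05 without replicate 1. Membrane linkers and spectrins ranged from -0.34 for Msn to 0.24 for Sptbn1. Among the other adhesion genes Zyx had -0.54 (SE 0.22, adjusted p 0.21), while Pxn had 0.41 (SE 0.12, adjusted p 0.099), Lima1 0.37 (SE 0.15, adjusted p 0.21) and Pdlim5 0.35 (SE 0.15, adjusted p 0.25). Flna (-0.12, SE 0.24), Gsn (-0.02, SE 0.24) and Cap2 (0.02, SE 0.36), which rose on withdrawal, had estimates no larger than their standard error; this does not show that they were equal.

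Compared with self-renewing cells, CK666-treated cells without LIF2i had 13 of the 51 genes raised (25.5%, against 19.8% of all genes) and 12 lowered (23.5%, against 17.1%). This comparison shares libraries with the other two, so its values are set beside them and are no independent evidence. Zyx was raised by 2.42 (SE 0.23) here and by 2.96 (SE 0.24) in the withdrawn controls. For Pdlim7 the corresponding log2 fold changes were 2.06 (SE 0.18) and 2.20 (SE 0.18), for Cap2 2.06 (SE 0.40) and 2.03 (SE 0.39), and for Flnc 1.52 (SE 0.22) and 1.71 (SE 0.22). All 3 CK666 libraries lay above all self-renewing cells for Zyx, Pdlim7 and Cap2, while for Flnc replicates 2 and 3 with CK666 lay below replicate 1 with LIF2i, and the adjusted p of Flnc without the block was 0.12. Coro1a had 1.34 (SE 0.23) here and 2.41 (SE 0.23) in the controls, Pls3 1.24 (SE 0.18) and 1.87 (SE 0.18), and Dstn 0.63 (SE 0.20) and 1.15 (SE 0.21). For Tes, 0.25 (SE 0.17) stood beside 1.39 (SE 0.17). These 4 genes, 2 of which were called between the withdrawn groups, had the smaller estimate with CK666. Evl was raised by 0.76 (SE 0.16) beside 0.52 (SE 0.16), and Gsn by 1.27 (SE 0.25) beside 1.30 (SE 0.25). Among lowered genes Fscn1 had -0.92 (SE 0.13) beside -0.74 (SE 0.13), Twf1 -0.83 (SE 0.14) beside -0.68 (SE 0.14), and Lasp1 -0.63 (SE 0.13) beside -0.54 (SE 0.13). Msn, moesin, was lowered with CK666 (-0.59, SE 0.11, adjusted p 0.0028) and was not called in the withdrawn controls (-0.25, SE 0.11, adjusted p 0.096); the direct comparison of these 2 groups gave -0.34 (SE 0.11, adjusted p 0.13). Tmsb10 (-0.58, SE 0.16) and Capza1 (-0.50, SE 0.14) were likewise called here and not in the controls alone, and the direct comparison gave -0.13 (SE 0.16, adjusted p 0.70) and -0.16 (SE 0.14, adjusted p 0.58); the direct comparison called none of these 3 genes with all libraries, and called Msn without the replicate 1 library with LIF2i (-0.36, SE 0.10, adjusted p 0.049). The Msn call was lost without replicate 3, and Tmsb10 and Capza1 were called in 15 and 11 of the 21 alternatives. Beside 25 genes with all libraries, 32 were called without replicate 1, 13 without replicate 2, 9 without replicate 3 and 12 without the block, where 41.6%, 22.5%, 16.1% and 20.2% of all genes were. Zyx, Pdlim7, Coro1a, Pls3, Fscn1 and Twf1 were called in all 21 alternatives, whereas Ssh3, Actn4 and Dstn were called in 8, 11 and 12 of them.

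Among 76 other genes of the actin-binding and adhesion machinery, 72 could be tested. On withdrawal 32 rose (44.4%, against 21.1% of all genes tested) and 10 fell (13.9%, against 19.7%), and the median log2 fold change was 0.33, beside 0.01 over all genes tested. For CK666 against withdrawn controls 4 were called (5.56%, against 2.05%). Without replicate 1, 71 could be tested, of which 38 rose (53.5%, against 23.7% of all genes in that fit) and 13 fell (18.3%, against 21%) on withdrawal, and 14 were called for CK666 (19.7%, against 12.3% of all genes in that fit). Vcl, vinculin, which strengthens the link between talin and actin, was at 181, 114 and 111 CPM with LIF2i, 203, 277 and 289 CPM without and 125, 109 and 135 CPM with CK666, with a change for CK666 of -1.07 (SE 0.21, adjusted p 0.041). Capg, a gelsolin relative that caps filaments, was at 46.9, 54.1 and 55.5 CPM in withdrawn controls and 30.9, 22.3 and 21.3 CPM with CK666 (-1.07, SE 0.21, adjusted p 0.040). With LIF2i Capg was at 23.0, 36.7 and 28.8 CPM, so for both genes the CK666 libraries overlapped the self-renewing cells and lay below all withdrawn controls. Tns2, a tensin of integrin adhesions, changed by -1.19 (SE 0.21, adjusted p 0.031) and Coro2b, a coronin found at adhesions, by 1.16 (SE 0.16, adjusted p 0.019). Coro2b was at 73.9, 45.3 and 41.5 CPM with LIF2i, 8.59, 6.33 and 4.80 CPM without and 18.4, 15.1 and 10.5 CPM with CK666, with no overlap between the 3 groups. Without the block none of these 4 was called for CK666, with adjusted p-values of 0.30, 0.29, 0.37 and 0.35 in the same order.

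The transcripts through which some of these genes were expressed also differed. The share of a gene's TPM carried by each annotated transcript was examined for 93 transcripts of 43 genes, those with at least 10% of their gene in some group and a gene mean of at least 10 TPM. With and without LIF2i, 20 transcripts of 12 genes had no overlap between the control groups and group means at least 10 percentage points apart, 21.5% of those examined against 8.19% over all genes; shares within a gene sum to 100%, so its transcripts do not count separately. In shares of estimated counts 13 were apart, and 10 by both measures. For these counts no share over all genes was worked out, so they cannot be set beside a background. With 3 libraries a group an exact permutation test cannot go below 0.10, so no p-values are given. Limk2 was among them. Limk2-203 carried 35.5, 32.7 and 27.3% of the TPM of Limk2 with LIF2i, 0, 1.84 and 8.85% without and 0, 8.93 and 6.19% with CK666. Limk2-201 carried 29.8, 42.5 and 51.4%, 78.6, 70.6 and 59.6% and 75.8, 74.4 and 78.6% in the same order. In all 6 libraries without LIF2i Limk2-201 held most of the signal, and in 2 of them Limk2-203 is listed at 0.

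Cald1, whose total differed between replicates, had a lower share of its leading transcript without LIF2i in each of them. Cald1-203 carried 82.4, 87.6 and 81.0% with LIF2i, 54.2, 46.2 and 43.5% without and 56.4, 69.7 and 57.1% with CK666. Sptan1-201 carried 68.3, 73.3 and 64.0%, 57.5, 52.2 and 46.7% and 60.7, 69.9 and 67.4%, while Sptan1-202 carried 19.8, 10.8 and 11.6%, 35.2, 20.2 and 34.9% and 28.2, 12.1 and 15.6%. In both genes the leading transcript was lower in each control library without LIF2i than in any with it. Enah-202 went from 7.62, 2.26 and 2.87% to 14.5, 19.9 and 14.2%, with 9.28, 8.58 and 11.5% with CK666. Plec-201 went from 21.4, 23.5 and 17.1% to 0, 11.9 and 3.06% and Plec-203 from 11.2, 33.2 and 43.7% to 55.3, 53.6 and 45.3%, with 3.75, 13.8 and 5.07% and 50.9, 48.6 and 36.2% with CK666. For Flnc, Flnc-201 carried 74.5, 76.1 and 70.9% with LIF2i and 55.1, 46.9 and 59.8% without.

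**Figure D4:**
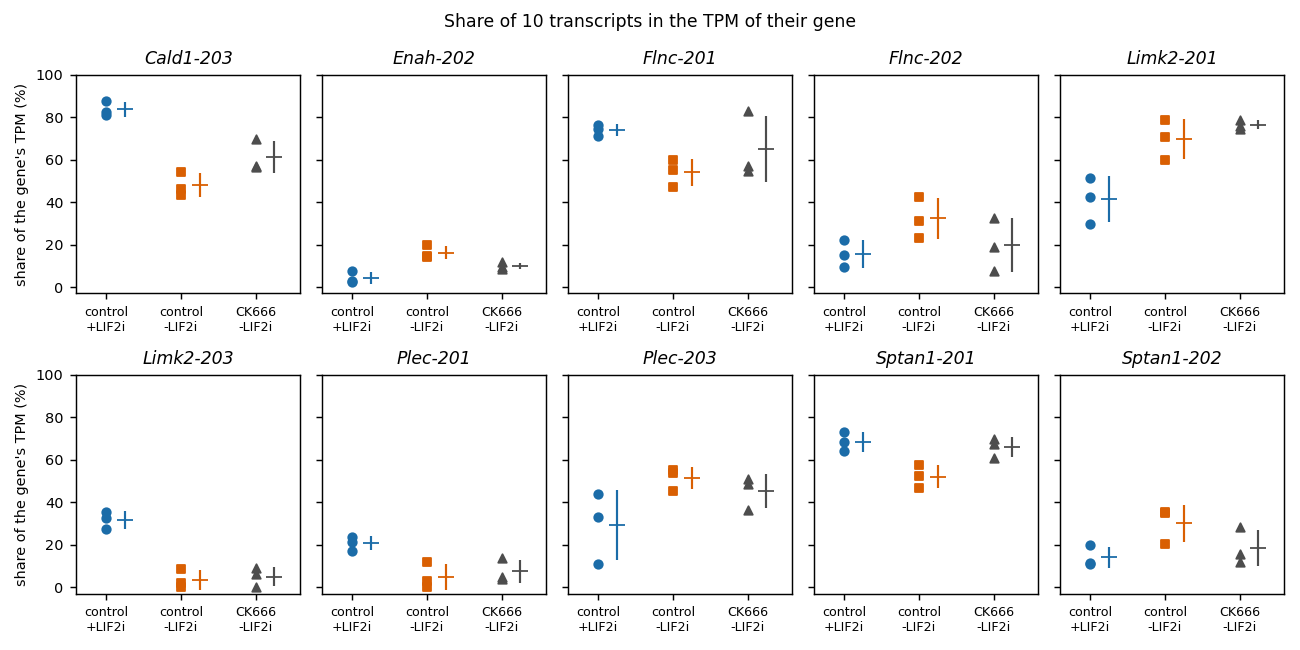
Share of 10 transcripts in the TPM of their gene (%) in every library, with mean ± SD (n = 3) beside the points. Limk2-203 drops to under 10% without LIF2i, Limk2-201 takes most of its gene, and Cald1-203 and Sptan1-201 are lower in the withdrawn controls than with LIF2i.

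For CK666 against withdrawn controls 4 transcripts were apart, 4.30% of those examined against 4.56% over all genes, so the share was close to the background. These were Cald1-203 and Sptan1-201, both higher with CK666, Pdlim7-203 (21.8, 39.4 and 31.5% in withdrawn controls and 42.4, 46.4 and 50.0% with CK666) and Coro1a-207 (25.5, 15.0 and 27.2% and 0, 13.2 and 2.86%). By shares of estimated counts 1 of them, Pdlim7-203, was apart, again without a share over all genes. How reads were divided between transcripts rests on the authors' quantification, and transcripts of 1 gene that differ by few exons are the least certain.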

How the data were processed

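Poly-A RNA from 9 cultures of E14 cells was sequenced, per the labels' protocols with a kit whose reads are not said to carry strand. The submitters' processing notes name FastQC, cutadapt 1.8.1, kallisto and sleuth and the builds mm10 and GRCh38, without roles; the transcript release is not given in the sources used here. Each deposited table lists 119414 transcripts with length, effective length, estimated counts and TPM, per the file headers. The authors' estimated counts carry no normalisation and split reads that match more than one transcript. The authors' TPM values were length-corrected with the effective length, another deposited column, and scaled within the library.

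Transcripts were assigned to genes by identifier with GENCODE M21 (GRCm38), which placed 116640 (97.7%); the other 2774 held 0.895% to 1.08% of counts and were left out. Estimated counts were summed per gene and rounded. edgeR 4.0.16 in R 4.3.3 (robust quasi-likelihood, TMM scaling, its expression filter) was fitted on all 9 libraries with the replicate number as a block and 4 residual degrees of freedom, and p-values were Benjamini-Hochberg adjusted over 14648 genes. The study calls its biological replicates paired and the titles number them; deviations of same-numbered libraries correlated across genes at 0.30 to 0.65 in all 9 pairs. CPM values are TMM-scaled, and SE was derived from the test statistic. The labels call the cultures biological replicates and do not say how they were separated. The p-values of the blocked fits therefore measure the spread left between these libraries once differences between replicate numbers are removed. Floors of 3 counts cover counting error only.

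Values in every library are given for genes called for CK666, genes called on withdrawal that changed by at least 1 on the log2 scale in either direction, and the most abundant gene of each of 7 roles; Cald1 was added after its values were seen. The genes, lists and tests were chosen with earlier results of these data known. Each comparison was repeated in 21 alternatives: without the block, DESeq2 1.42.0, RLE size factors, no filter, a filter at 1 CPM, limma 3.58.1 on log2(TPM + 1), an effective length offset, protein-coding transcripts alone, the 2 groups alone, and 12 that leave out libraries. Word sharing between genes was counted over 31-base words of the annotated transcripts.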

Additional observations from a re-analysis of the deposited data

How the results depend on the processing

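Of 28 genes called on withdrawal, none changed sign in 588 alternative values, 61 of which lost the call, and 11 genes were called in all 21 alternatives. Of 3 genes called for CK666, none changed sign in 63 values and 32 lost the call. Against cells with LIF2i, 25 called genes gave 525 values with no change of sign and 82 lost calls. Among genes not called, estimates changed sign in 42, 54 and 29 values in the same order, and 15, 21 and 17 values passed the threshold. Counts of called genes moved as follows from 28, 3 and 25. Without the replicate block they were 12, 0 and 12; the cause was not tested. Leaving out libraries gave 17 to 34, 0 to 14 and 9 to 32. For CK666, limma on log2(TPM + 1) gave 0 (0.287% of all genes), the effective length offset 1 (1.96%, against 1.01% of all genes) and the fit on the libraries of 2 groups 5 (9.8%, against 9.67%). Cald1 was the one gene that passed with the opposite sign: on withdrawal it ranged from -0.56 to 0.93 over the leave-outs, and for CK666 against LIF2i from -0.75 to 0.68, positive and called without replicate 1 (0.93 and 0.59) and without the replicate 1 library with LIF2i (0.84 and 0.68). Transcripts apart in share numbered 13 in place of 20 on withdrawal and 1 in place of 4 for CK666 when shares of estimated counts were used, a measure for which no share over all genes was worked out. By CPM in place of TPM, 5 of 7 roles had the same most abundant gene; Flna and Sptan1 replaced Fscn1 and Ezr. No cause of these shifts was tested. The genes with the lowest means over the 9 libraries were at 2.49 ± 0.817 CPM (Vil1) and 3.44 ± 3.23 CPM (Lcp1) with LIF2i (SD, n = 3). The part of depth in their spread was not tested.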

Other observations

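The replicate 1 libraries differed from replicates 2 and 3 in a way that partly followed transcript length. Of the 51 genes, 21 were higher in replicate 1 than in the mean of the other two in all 3 groups, among them the long transcripts of Flna, Flnc, Plec, Sptan1, Sptbn1, Tln2 and Ssh2, and 11 were lower in all 3 groups, among them Tmsb10, Cfl2, Pfn2, Ssh3, Pdlim7 and Coro1a. The 21 also held the short Pfn1 (865 bases), and the 11 also held the longer Pls3 (3110 bases). How many of all genes were higher or lower in all 3 groups was not counted. Tmsb10 was at 189, 925 and 749.9 CPM with LIF2i and 138, 562 and 669 CPM without, and Ssh2 at 37.3, 9.20 and 14.2 CPM and 30.6, 9.39 and 14.5 CPM. Across the 51 genes, Spearman's rho between transcript length and the log2 ratio of replicate 1 to the others was 0.56 with LIF2i, 0.51 without and 0.43 with CK666, beside 0.42, 0.38 and 0.34 across all genes tested. Genes are not independent replicates and each ratio rests on the same 3 libraries, so these are descriptions without a p-value. The difference was not alike in all groups for every gene: the log2 ratio of replicate 1 to the others was 1.43 with LIF2i and -1.21 without for Cald1, 1.46 and 0.24 for Flna, 0.74 and -0.26 for Tln1 and 1.14 and -0.12 for Cap2. Its part in the results was not tested.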
